A study of Mus musculus with 6 samples.

Results

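The genes described here are 7 transcripts of mucosal oxidant production and peroxide removal, taken by gene symbol from a table that pairs array probe sets with genes: Nox1, Noxo1, Noxa1, Duox2, Duoxa2, Nos2 and Gpx2. Each of the 7 had exactly 1 probe set of its own, and they were read among 19938 genes measured in mouse ileum. Of the 7, 2 were higher (Nox1 and Noxa1) and 1 was lower (Nos2) in the mice labelled Gata6 KO, and 4 did not pass the test. Across all genes tested, 4.99% were called higher, 3.25% lower and 8.24% either way at a limma adjusted p under 0.05, the threshold used throughout. At an unadjusted p under 0.05 stood 4 of the 7, against 24.7% of all genes, and the 2 groups of arrays did not overlap for 3 of the 7, against 29.3% of all genes.

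The gut epithelium makes reactive oxygen and nitrogen species on purpose, as signals and as part of its defence against microbes. NOX1 is a membrane oxidase that passes electrons from NADPH to oxygen and yields superoxide. It works with the membrane partner p22phox (Cyba), the organizer NOXO1, the activator NOXA1 and the GTPase RAC1, and in mice it is best known from colon epithelium. DUOX2 is a dual oxidase that releases hydrogen peroxide at the apical surface and needs DUOXA2 to mature and reach it. The inducible nitric oxide synthase, encoded by Nos2, makes nitric oxide from arginine in activated macrophages and in intestinal epithelium. GPX2 is the gastrointestinal glutathione peroxidase, a selenoprotein abundant in crypts that reduces peroxides with glutathione.

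RNA came from the whole ileal segment of 6 individual mice, each hybridised to its own Affymetrix Mouse Gene ST array. The 3 controls were Villin-CreERT2 mice, in which the Villin promoter drives a tamoxifen-inducible Cre in intestinal epithelium; the 3 mice labelled Gata6 KO carried the same Cre and Gata6 flox/flox alleles. All 6 received tamoxifen (100 mg/ml) on 5 consecutive days at an age of 6 to 8 weeks, and tissue was taken after a further 28 days, at 10 to 12 weeks. The sections of whole ileum hold muscle, connective tissue and immune cells beside epithelium, and on such samples fewer cells of a type and less RNA per cell cannot be told apart.

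All values are log2 signals. Medians over all probe sets ranged from 3.41 to 3.44 among controls and from 3.33 to 3.38 among KO-labelled arrays, and each of the 7 genes lay above these medians on every array. Gata6 itself read 6.31, 6.33 and 6.50 in controls and 6.93, 6.81 and 6.86 on KO-labelled arrays, a difference of 0.49 (SE 0.08; limma adjusted p = 0.0162, and 0.0501 to 0.0623 without control replicate 1 or any 1 Gata6 KO replicate), so the signal goes against the label, and directions are given for the arrays as labelled. No source used here places that probe set inside or outside the floxed part. Control replicate 3 had the signals of a male (Xist at 2.31, against 7.39 to 7.81 elsewhere) and the other 5 arrays those of females. Epithelial identity was plain on every array: Epcam, an epithelial adhesion molecule, read 9.88 to 10.09, with a log2 fold change of 0.04 (standard error, SE, 0.08; limma adjusted p = 0.804). The brush border protein Vil1 fell by 0.41 on the log2 scale, from 10.46 to 10.05 (SE 0.08; limma adjusted p = 0.0225). Without control replicate 3 or Gata6 KO replicates 1, 2 or 3 its adjusted p was 0.0732, 0.0708, 0.0954 and 0.0607. Of the 12 epithelium markers listed, 1 rose and 1 fell, against 4.99% and 3.25% of all genes, and 9 had positive log2 fold changes. The marker that rose was Krt19 (0.33, SE 0.07, limma adjusted p = 0.0394, and 0.0704 to 0.135 with any 1 array left out).

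Nox1, the catalytic subunit, read 6.18, 6.43 and 6.08 in the 3 controls and 7.99, 7.56 and 7.42 on the 3 KO-labelled arrays. The lowest KO-labelled value was thus well above the highest control, and the groups did not overlap. Nox1 rose 2.69-fold, a log2 fold change of 1.43 (SE 0.16, n = 3 per group) with a limma adjusted p of 0.00364. Nox1 lies on the X chromosome, and with the male control replicate 3 left out the log2 fold change was 1.35 (limma adjusted p = 0.0246).

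Noxa1, the activator subunit, read 4.89, 5.06 and 5.02 in controls and 6.00, 6.00 and 5.92 on KO-labelled arrays. Both groups were tight and far apart. It rose 1.98-fold, a log2 fold change of 0.99 (SE 0.08, n = 3 per group), with a limma adjusted p of 0.00108. Noxo1, the organizer that brings the activator to the oxidase, read 5.50, 5.49 and 5.96 in controls and 5.86, 5.71 and 5.71 on KO-labelled arrays. Its KO-labelled values lay within the control range, with control replicate 3 the highest of all 6. The log2 fold change of Noxo1 was 0.11 (SE 0.14, 95% interval -0.22 to 0.43, limma adjusted p = 0.686).

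**Figure D1:**
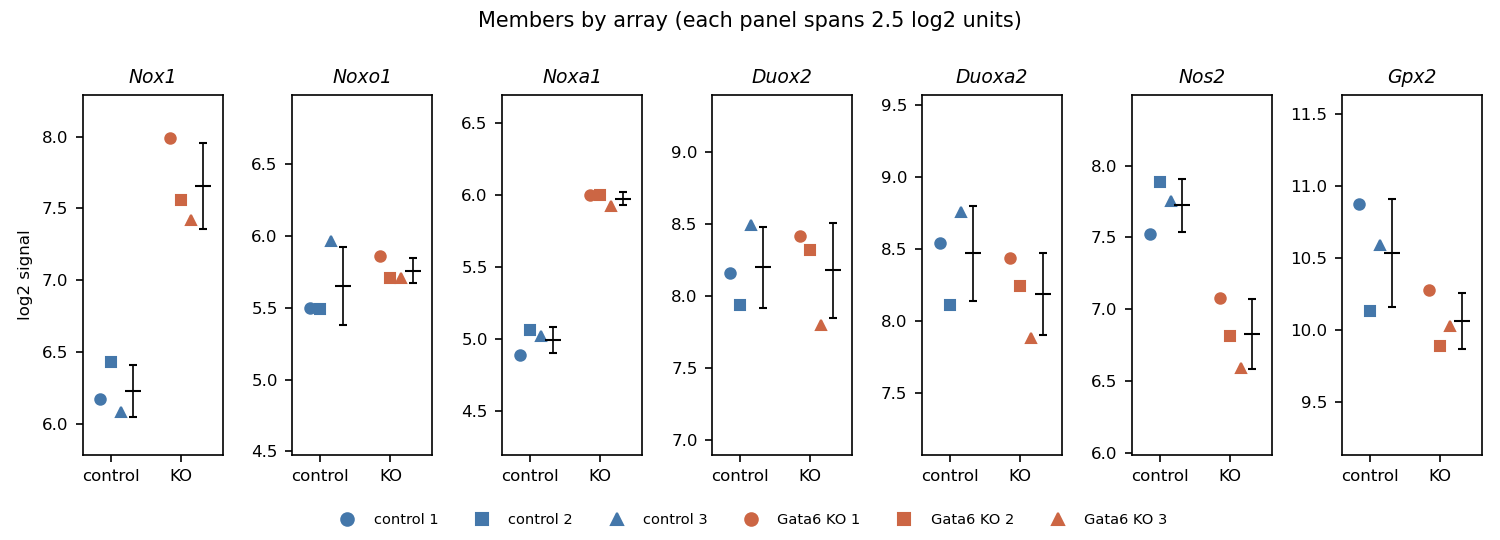
The log2 signal of each of the 7 genes (vertical axes, 1 panel per gene, all of equal span) is plotted for the 3 control and the 3 Gata6 KO-labelled arrays, with bars at the mean ± SD (n = 3). The groups are apart for Nox1, Noxa1 and Nos2 and overlap for the other 4; levels are not comparable between panels.

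Within an array, the difference between Nox1 and Noxo1 was 0.68, 0.94 and 0.12 in controls and 2.13, 1.85 and 1.71 on KO-labelled arrays. This difference grew by 1.32, and the groups did not overlap. The difference between Nox1 and Noxa1 was 1.29, 1.37 and 1.06 in controls and 1.99, 1.56 and 1.49 on KO-labelled arrays, larger by 0.44. For each the two-sided exact permutation test gave p = 0.1, the smallest that this test allows with 3 against 3 arrays, so it could not pass the threshold; adjusted over the 3 pairs compared it was also 0.1.

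Of the other oxidase subunits and maturation factors, 10 of 11 listed were measured, and 1 rose and none fell, against 4.99% and 3.25% of all genes. The list's median log2 fold change was 0.06, against -0.004 for all genes. The member that rose was Cyba, which encodes p22phox, the membrane partner that stabilizes NOX1. Cyba read 7.33, 7.33 and 7.59 in controls and 7.83, 7.86 and 7.76 on KO-labelled arrays, a difference of 0.40 on the log2 scale (SE 0.09; limma adjusted p = 0.0462). That call was close to the threshold and was lost without control replicates 1 (0.121) or 2 (0.0913) or Gata6 KO replicates 1 (0.121), 2 (0.157) or 3 (0.106). Rac1, the GTPase of the complex, read 9.03 in controls and 9.07 on KO-labelled arrays (log2 fold change 0.04, SE 0.08, 95% interval -0.14 to 0.22).

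The phagocyte oxidase showed wider spread. Cybb, the catalytic subunit of phagocytes, read 7.04, 6.90 and 6.25 in controls and 7.85, 7.26 and 6.59 on KO-labelled arrays, and the groups overlapped. Its log2 fold change of 0.50 (SE 0.33) had a limma adjusted p of 0.400. The organizer Ncf1, the phagocyte counterpart of Noxo1, had a log2 fold change of 0.46 with an SE of 0.19 (limma adjusted p = 0.192), and Ncf4 one of -0.09 (SE 0.11). Rac2, the GTPase of blood cells, had 0.09 (SE 0.13). Nox3 and Nox4 lay below the array medians in both groups, with log2 fold changes of -0.04 and 0.09 that did not pass.

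**Figure D2:**
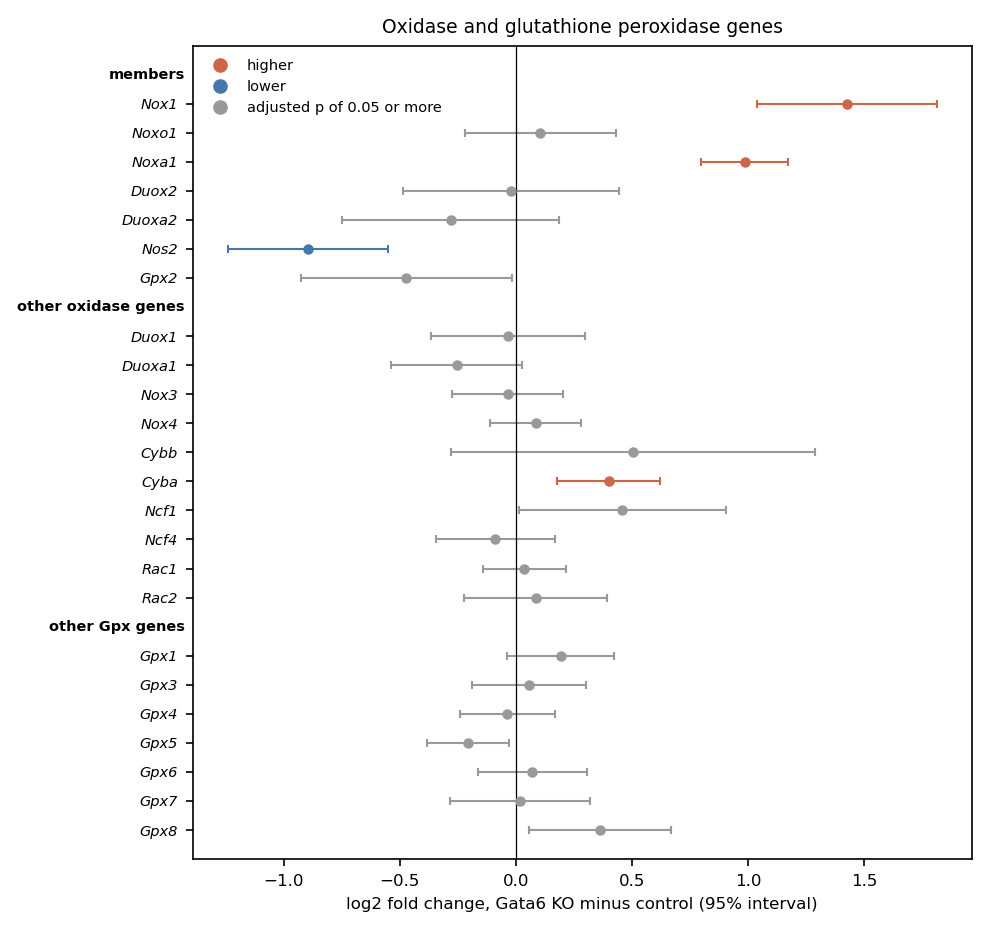
Log2 fold changes, Gata6 KO-labelled minus control arrays (horizontal axis, n = 3 per group), are plotted with 95% intervals from the limma fit for the 7 genes, 10 other oxidase genes and 7 other glutathione peroxidases. Colour marks genes with an adjusted p under 0.05: Nox1, Noxa1 and Cyba to the right of 0 and Nos2 to the left.

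The sequences around annotated start sites are shown for the 3 NOX1 complex genes, because Nox1 and Noxa1 rose together and Noxo1 did not pass. They are RefSeq windows of build GRCm38.p6, 250 bases before to 50 bases after a start site, printed 5′ to 3′ on the gene's strand. The Nox1 window is chrX:134111805-134112104 on the minus strand, the Noxa1 window chr2:25095156-25095455 on the minus strand and the Noxo1 window chr17:24695984-24696283 on the plus strand. The gene record of Nox1 reaches 25857 bases further upstream than the start site of its window, so other starts exist. Capitals mark GATAA, the core letters bound by GATA factors, or TTATC, the same letters on the other strand.
Nox1: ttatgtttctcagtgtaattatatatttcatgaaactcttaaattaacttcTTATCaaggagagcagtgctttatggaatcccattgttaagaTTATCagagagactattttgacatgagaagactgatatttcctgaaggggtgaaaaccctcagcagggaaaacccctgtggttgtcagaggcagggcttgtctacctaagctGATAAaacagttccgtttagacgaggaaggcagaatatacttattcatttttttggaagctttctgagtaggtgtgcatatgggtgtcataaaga
Noxa1: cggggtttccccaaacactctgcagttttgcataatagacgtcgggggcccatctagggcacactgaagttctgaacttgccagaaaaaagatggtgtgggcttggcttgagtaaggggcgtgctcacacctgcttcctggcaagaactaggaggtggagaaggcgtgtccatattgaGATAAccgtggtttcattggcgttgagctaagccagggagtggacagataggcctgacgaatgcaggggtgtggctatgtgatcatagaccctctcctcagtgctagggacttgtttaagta
Noxo1: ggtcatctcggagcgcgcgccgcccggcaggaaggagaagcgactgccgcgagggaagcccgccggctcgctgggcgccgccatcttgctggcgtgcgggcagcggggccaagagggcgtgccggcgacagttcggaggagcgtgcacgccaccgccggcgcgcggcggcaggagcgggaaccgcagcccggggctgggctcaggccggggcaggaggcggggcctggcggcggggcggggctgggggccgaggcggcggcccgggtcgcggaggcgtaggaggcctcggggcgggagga
The Nox1 window held 3 such matches, 199 and 157 bases before the start site on the minus strand of the window and 45 bases before it on the plus strand. The Noxa1 window held 1, at 72 bases before the start site, and the Noxo1 window held 0. Of all 32851 windows of this length, 25.4% held at least 1 match on either strand. How many held 3 was not counted, and the base composition of the windows was not taken into account.

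Windows were found for 6 of the 7 genes; Nos2 had none. Those of Duox2, Duoxa2 and Gpx2 held no GATAA on either strand. The NF-kappaB consensus, searched on both strands, matched at 1 place in the Nox1 window and 1 in the Noxa1 window, against 4.51% of all windows, and in none of the other 4. Neither TGACNNNGC, the core of the antioxidant response element, nor TTCNNNGAA, the gamma-activated site, matched in any of the 6 windows; 12.4% and 8.3% of all windows held them. No NF-kappaB match covered a GATAA match. These matches describe letters only.

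Duox2, the dual oxidase, read 8.16, 7.94 and 8.50 in controls and 8.42, 8.32 and 7.80 on KO-labelled arrays. The values interleave. Its log2 fold change was -0.02 (SE 0.20, 95% interval -0.49 to 0.44, limma adjusted p = 0.963), and the sign turned with each array centred on its median (0.04). Duoxa2, its maturation factor, read 8.54, 8.11 and 8.76 in controls and 8.44, 8.24 and 7.88 on KO-labelled arrays, again with overlap. The log2 fold change of Duoxa2 was -0.28 (SE 0.20, 95% interval -0.75 to 0.19, limma adjusted p = 0.433).

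Duox2 and Duoxa2 are direct neighbours on chromosome 2 and lie on opposite strands. Duoxa2 is followed by Duoxa1, the maturation factor of the paralogue DUOX1. On the arrays the pair kept the same order: control replicate 3 was highest for both within its group and control replicate 2 lowest, and among KO-labelled arrays replicate 1 was highest and replicate 3 lowest. The difference between Duox2 and Duoxa2 within an array was -0.38, -0.17 and -0.26 in controls and -0.02, 0.08 and -0.08 on KO-labelled arrays. It moved by 0.26 with no overlap between the groups (two-sided exact permutation p = 0.1, the smallest possible). Duox1 and Duoxa1 lay below the array medians, with log2 fold changes of -0.03 (SE 0.14) and -0.26 (SE 0.12, limma adjusted p = 0.240).

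Nos2 read 7.53, 7.89 and 7.76 in controls and 7.08, 6.81 and 6.59 on KO-labelled arrays. Every control lay above every KO-labelled array. Nos2 fell 1.86-fold, a log2 fold change of -0.89 with an SE of 0.15 (n = 3 per group, limma adjusted p = 0.0138). The adjusted p was 0.0646 without control replicate 3 and 0.0677 without Gata6 KO replicate 2, with log2 fold changes of -0.88 and -0.89.

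Of the other synthases and the genes of arginine supply and use, 10 of 11 listed were measured, and none passed in the limma fit, while 3 were higher and 1 lower at an unadjusted p under 0.05. Their median log2 fold change was 0.07. Over all genes, 8.24% passed and 24.7% had an unadjusted p under 0.05, in either direction. The neuronal synthase Nos1 read 3.28 and 3.29 and the endothelial synthase Nos3 read 3.93 and 3.86 in controls and KO-labelled arrays. Arg1, which competes with nitric oxide synthase for arginine, was named after its values were seen: it read 5.36, 4.72 and 4.08 in controls and 6.51, 6.79 and 4.82 on KO-labelled arrays, with overlap (log2 fold change 1.32, SE 0.54, limma adjusted p = 0.187).

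Signals that induce Nos2 and Duox2 were listed as well. None of 15 measured interferon gamma response genes passed in the limma fit; 1 was higher and 4 lower at an unadjusted p under 0.05, and the median log2 fold change was -0.13. Among 11 inflammatory cytokines none passed, 1 was higher at an unadjusted p under 0.05 and the median was 0.01. In the same fit 8.24% of all genes passed and 24.7% had an unadjusted p under 0.05, in either direction. Of 19 genes of the epithelial response to IL-17 and IL-22, 1 rose and 2 fell, against 4.99% and 3.25% of all genes. Their median was 0.004. The list went both ways: 5 were higher and 7 lower at an unadjusted p under 0.05, against 24.7% of all genes for either direction. The count that fell was 5 with genes of a mean of at least 4 alone or with a trended, robust variance, and 0 with the smooth muscle covariate. Il17rc, a chain of the IL-17 receptor, fell by 0.55 on the log2 scale (SE 0.07, limma adjusted p = 0.00593), a call kept in all 6 fits that leave out 1 array.

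Fut2, the fucosyltransferase of surface glycans, read 7.12, 5.39 and 6.15 in controls and 8.74, 8.55 and 8.52 on KO-labelled arrays (log2 fold change 2.38, SE 0.38, limma adjusted p = 0.0125). Its call was lost without control replicate 3 (0.0621) or Gata6 KO replicates 1 (0.0607) or 2 (0.0610). The cytokine Il18 dropped by 1.17 on the log2 scale (SE 0.26, limma adjusted p = 0.0373), a call lost without control replicates 1 (0.0671) or 3 (0.114) or Gata6 KO replicates 1 (0.125), 2 (0.0708) or 3 (0.116).

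Gpx2 read 10.88, 10.13 and 10.59 in controls and 10.27, 9.89 and 10.02 on KO-labelled arrays. Control replicate 2 lay below Gata6 KO replicate 1, so the groups overlapped. Its log2 fold change was -0.47 (SE 0.19, 95% interval -0.93 to -0.02), with an unadjusted p of 0.0435 and a limma adjusted p of 0.189. Without control replicate 2 the log2 fold change was -0.67 (limma adjusted p = 0.0545). None of the 7 other glutathione peroxidases passed in the limma fit. At an unadjusted p under 0.05, 1 was higher and 1 lower, against 24.7% of all genes for either direction. Gpx1, the cytosolic enzyme of most cells, had a log2 fold change of 0.19 (SE 0.10), Gpx3, the secreted form, 0.06 (SE 0.11), and Gpx4, which reduces lipid peroxides, -0.04 (SE 0.09). Gpx7 had 0.02 and Gpx8, which resides with it in the endoplasmic reticulum, 0.36 (SE 0.13, limma adjusted p = 0.146). Gpx5 and Gpx6 lay below the array medians.

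Around Gpx2, the enzymes that make and recycle glutathione moved in both directions. Of 7 measured, 2 rose and 1 fell, against 4.99% and 3.25% of all genes. Gsr, which returns oxidized glutathione to its reduced form, read 9.31, 8.88 and 9.24 in controls and 8.29, 8.03 and 8.12 on KO-labelled arrays. The groups were clearly apart, and Gsr fell by 1.00 on the log2 scale (SE 0.13, limma adjusted p = 0.00604), a call kept in all 6 fits that leave out 1 array. Gclc and Gclm, the catalytic and modifier subunits of the first step of glutathione synthesis, rose by 0.81 (SE 0.15) and 0.51 (SE 0.10), with limma adjusted p of 0.0206 and 0.0230. Both lost the call without control replicates 2 (0.0566 and 0.0525) or 3 (0.0650 and 0.0856) or Gata6 KO replicates 2 (0.0939 and 0.0966) or 3 (0.0783 and 0.0851).

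NRF2, encoded by Nfe2l2, is the transcription factor that switches on many detoxifying and antioxidant genes. Of 13 measured genes of the list of Nrf2 and its targets, 7 rose and none fell, while 6 did not pass. Of all genes, 4.99% rose and 3.25% fell. The median over the 13 was 0.77 on the log2 scale, against -0.004 for all genes. The list is named for its regulator, and no test of the list was made. Gstm1, a glutathione transferase, read 6.36, 6.34 and 6.07 in controls and 7.48, 8.15 and 7.99 on KO-labelled arrays. It rose by 1.62 on the log2 scale (SE 0.18, limma adjusted p = 0.00292). Gsta4, the transferase of lipid peroxidation products, rose by 1.52 (SE 0.19, limma adjusted p = 0.00433), and both kept the call in all 6 fits that leave out 1 array.

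The quinone reductase Nqo1 read 6.06, 5.43 and 5.70 in controls and 6.65, 7.05 and 6.84 on KO-labelled arrays, a rise of 1.12 (SE 0.18, limma adjusted p = 0.0117), with an adjusted p of 0.0581 without control replicate 3 and 0.0586 without Gata6 KO replicate 2. Gsta3 rose by 0.77 (SE 0.15, limma adjusted p = 0.0236), a call lost without control replicates 2 (0.0637) or 3 (0.0846) or Gata6 KO replicates 1 (0.0714), 2 (0.0981) or 3 (0.0851). Nfe2l2 itself, named after its value was seen, rose by 0.60 (SE 0.12, limma adjusted p = 0.0261), and lost the call without control replicates 1 (0.0573) or 3 (0.0829) or Gata6 KO replicates 2 (0.111) or 3 (0.0929). The count of 7 was 6, 4 and 2 without control replicates 1, 2 and 3, and 5, 2 and 3 without Gata6 KO replicates 1, 2 and 3. It was 0 without moderation of the variances or with the smooth muscle covariate. In the RefSeq windows, TGACNNNGC matched in 2 of the 11 genes of this list with a window, against 14.0% of all genes.

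The thioredoxin branch reduces peroxides through peroxiredoxins, and its list here also held glutaredoxins. The list had calls in both directions, but none for a measured peroxiredoxin, thioredoxin or thioredoxin reductase. Of 13 measured genes 1 rose and 2 fell, against 4.99% and 3.25% of all genes, with a median log2 fold change of 0.04. Srxn1, the sulfiredoxin that repairs oxidized peroxiredoxins, read 7.92, 7.83 and 7.92 in controls and 7.38, 7.36 and 7.46 on KO-labelled arrays. It fell by 0.49 (SE 0.07, limma adjusted p = 0.00954), with an adjusted p of 0.0507 without Gata6 KO replicate 2. Gclc, Gclm, Gsr, Srxn1 and Gpx2 are known as NRF2 targets too, although they stood on other lists here. Gclc and Gclm rose, Gsr and Srxn1 fell, and Gpx2 (-0.47) did not pass. The counts of the Nrf2 list thus depend on which known targets were placed on it.

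Glutaredoxin, Glrx, dropped by 0.67 on the log2 scale (SE 0.12, limma adjusted p = 0.0212), a call lost without control replicates 1 (0.0572) or 3 (0.0616) or Gata6 KO replicates 1 (0.0756) or 2 (0.0911). Txnip, the thioredoxin inhibitor, rose by 0.47 (SE 0.09, limma adjusted p = 0.0248), a call lost without control replicates 1 (0.0616), 2 (0.0522) or 3 (0.0919) or Gata6 KO replicates 2 (0.0813) or 3 (0.0714). None of the 4 genes for superoxide dismutases and catalase passed in the limma fit, and 1 was higher at an unadjusted p under 0.05. The 4 measured peroxidases of mucosa and leukocytes gave the same counts. At that unadjusted threshold stood 24.7% of all genes, in either direction.

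**Figure D3:**
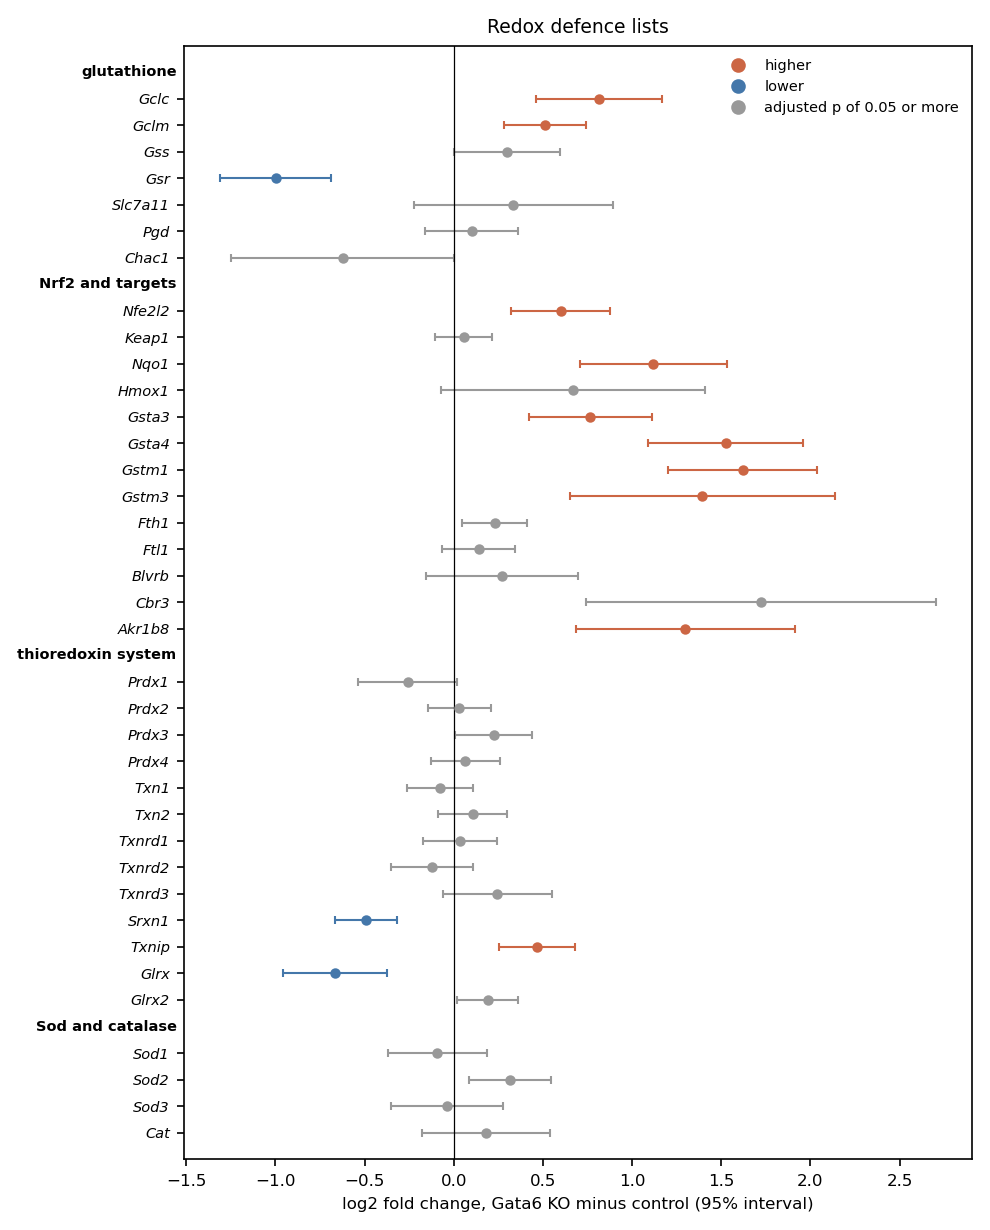
Log2 fold changes, Gata6 KO-labelled minus control arrays (horizontal axis, n = 3 per group), are plotted with 95% intervals for genes of glutathione supply, NRF2 targets, the thioredoxin system, superoxide dismutases and catalase. All 13 genes of the Nrf2 list lie to the right of 0, 7 of them with an adjusted p under 0.05, while Gsr, Srxn1 and Glrx lie to the left.

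Other cell types and regions were followed with marker lists, since Nox1 is a colon gene and Nos2 and Cybb are also macrophage genes. Of 15 measured colon epithelium markers 6 rose and 1 fell, against 4.99% and 3.25% of all genes, with a median of 1.07 on the log2 scale. The 3 with the smallest p were Sult1c2 (3.36), Ggh (1.32) and Slc6a14 (1.07), each called in all 6 fits that leave out 1 array. Of the 15, 11 had positive log2 fold changes. The others, named after their values were seen, were Mptx1, Aqp4 (-0.71), Hoxa13 (-0.045) and Hoxd13 (-0.001). Mptx1 was the marker that fell (-2.06, limma adjusted p = 0.00516), and both Hox genes lay below the array medians. Car1, a carbonic anhydrase of colon epithelium, read 10.96, 5.68 and 6.87 in the 3 controls, with replicate 1 far above the others, and 12.14 to 12.20 on KO-labelled arrays (limma adjusted p = 0.0722), and the anion exchanger Slc26a3 had 0.48 (limma adjusted p = 0.185). The mean of that list was 5.87, 4.83 and 4.91 in controls and 6.23, 6.93 and 6.79 on KO-labelled arrays. Control replicate 1 stood highest among controls in this list, while its Nox1 signal lay between those of the other controls, and Gata6 KO replicate 1 had the lowest list mean and the highest Nox1 of its group. Without control replicate 1, Nox1 had a log2 fold change of 1.40 (limma adjusted p = 0.0181) and Noxa1 one of 0.93 (0.00485). The part of the colon markers in the rise of Nox1 and Noxa1 was not tested.

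Of 11 macrophage and monocyte markers 1, Cd14, rose and none fell, against 4.99% and 3.25% of all genes. The list's median log2 fold change was 0.23, and its mean was 5.32 to 5.93 in controls and 5.61 to 6.26 on KO-labelled arrays. Cd14, a receptor for bacterial lipopolysaccharide, rose by 1.23 (SE 0.23, limma adjusted p = 0.0210) and lost the call without control replicates 2 (0.0625) or 3 (0.0724) or Gata6 KO replicates 1 (0.0820) or 2 (0.0939). The macrophage marker Adgre1 read 4.77 to 5.54 in controls and 5.19 to 5.88 on KO-labelled arrays (limma adjusted p = 0.460). The part of macrophages in the Nos2 and Cybb values was not tested. Of 10 neutrophil markers 2 rose and none fell, against 4.99% and 3.25% of all genes. The 2 were Ly6g (0.48) and Retnlg (0.38), both below the array medians. Ly6g lost the call without control replicate 3 or any 1 Gata6 KO replicate (limma adjusted p up to 0.0701). Retnlg lost it without any 1 array (up to 0.130). Ly6g had means of 1.82 and 2.30, and the list mean was 1.98 to 2.23 in controls and 2.07 to 2.39 on KO-labelled arrays.

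All 10 smooth muscle markers had positive log2 fold changes, 0.24 to 0.46, and 8 were higher at an unadjusted p under 0.05, of which 1, Tagln, passed (not without control replicates 1 or 3 or Gata6 KO replicates 2 or 3, up to a limma adjusted p of 0.142); their mean was 7.20 to 7.41 in controls and 7.43 to 7.75 on KO-labelled arrays. All 7 fibroblast markers were positive as well, 0.21 to 0.63; 5 were higher at an unadjusted p under 0.05, and 1, Dpt, passed (limma adjusted p = 0.0468, and up to 0.155 when 1 array other than control replicate 2 was left out). Of all genes, 24.7% had an unadjusted p under 0.05 in either direction, and 4.99% were called higher and 3.25% lower. With the smooth muscle mean as a covariate Nox1 had a log2 fold change of 1.72 (limma adjusted p = 0.0731), Noxa1 0.95 (0.0728) and Nos2 -0.72 (0.359). The smooth muscle mean did not overlap between the groups, so that fit cannot well tell it apart from the label. Standard errors grew there, for Cyba from 0.09 to 0.17. With the mean of the 12 epithelium markers as a covariate they had 1.48 (0.00383), 0.98 (0.00254) and -0.88 (0.0255). Among 7 goblet cell markers 2 rose, Muc2 (0.78) and Spdef (0.61), and 1 fell, Zg16 (-1.44), against 4.99% and 3.25% of all genes. With 1 array left out the limma adjusted p of these 3 markers reached 0.0952, 0.0524 and 0.0879. None of the 10 T and B lymphocyte markers and none of the 5 endothelium markers passed in the limma fit; each list had 1 member higher at an unadjusted p under 0.05.

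**Figure D4:**
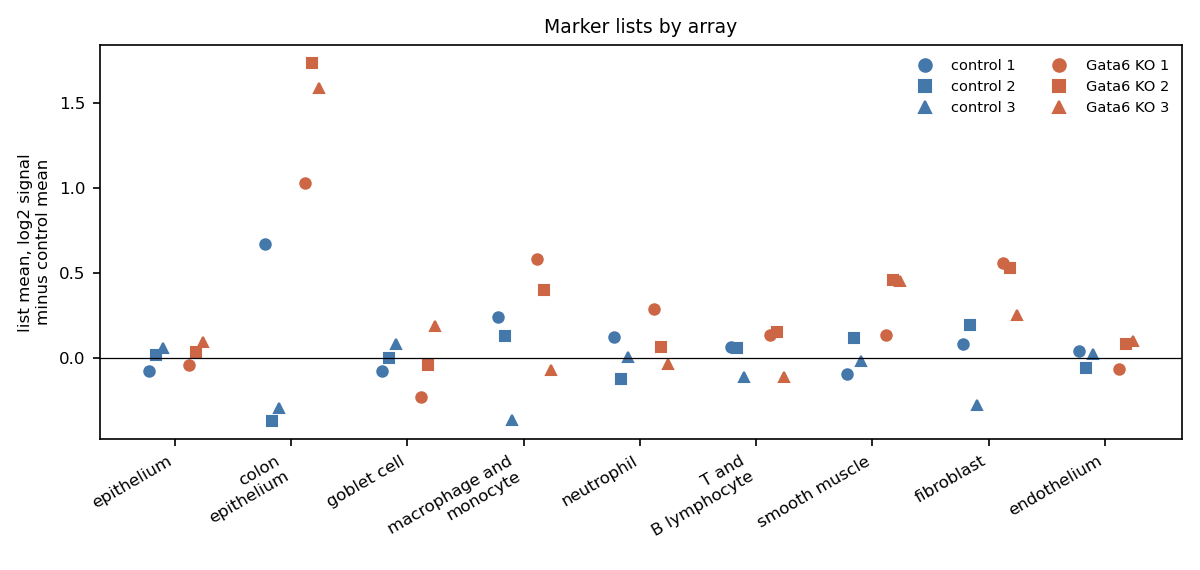
The mean log2 signal of each marker list, minus the mean of the 3 control arrays (vertical axis), is plotted for each of the 6 arrays. The colon list spreads most, from 4.83 in control replicate 2 to 6.93 in Gata6 KO replicate 2 before subtraction, while the epithelium list runs from 9.52 to 9.69.

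Within the groups the 7 genes largely shared an order on the KO-labelled arrays. Gata6 KO replicate 1 was highest of its group for 7 of the 7 genes, against 34.9% of all genes, and replicate 3 lowest for 6, against 29.9%. Gpx2, for which replicate 2 was lowest, was the exception. Parts of these counts rest on near ties. Noxa1 read 6.003 and 6.001 on Gata6 KO replicates 1 and 2, and Noxo1 5.708 and 5.706 on replicates 2 and 3. Some list means of immune genes also fell from replicate 1 to 2 to 3. They were 6.26, 6.09 and 5.61 for macrophage markers and 6.06, 5.91 and 5.67 for interferon gamma response genes. For inflammatory cytokines they were 2.65, 2.55 and 2.27, and for neutrophil markers 2.39, 2.17 and 2.07. This order was not common to all immune lists, since T and B lymphocyte markers had 4.34, 4.36 and 4.09. Nor was it limited to immune genes, since fibroblast markers had 8.39, 8.36 and 8.08. The part of these cells in the order of the 7 genes was not tested. In controls the order varied, with replicate 1 highest for 1 gene and replicates 2 and 3 for 3 each.

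The genes beside the 7 on their chromosomes mostly did not pass. Of the protein-coding neighbours of Nox1, Cstf2 had a log2 fold change of -0.06 and Xkrx -0.13; of those of Noxa1, Entpd8 had 0.23 and Nrarp -0.46 (limma adjusted p = 0.0550). Lgals9, a galectin gene next to Nos2 on chromosome 11 and named after its value was seen, read 10.11, 9.74 and 10.17 in controls and 8.55, 8.97 and 8.65 on KO-labelled arrays. Lgals9 fell with Nos2, by 1.28 on the log2 scale (SE 0.15, limma adjusted p = 0.00393), and Lyrm9 on the other side of Nos2 had a log2 fold change of 0.05.

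Across the 6 arrays, the named genes most like Nox1 after each was centred on its mean were Slc5a3, a myo-inositol transporter, at a root mean square difference of 0.12 log2 units, Tnip3 at 0.19 and the Wnt receptor Fzd3 at 0.19. The closest to Noxa1 were Slc36a4, an amino acid transporter, at 0.06, Sh3kbp1 at 0.06 and Scarb2, a lysosomal membrane protein, at 0.06. Naip5, a sensor of bacterial flagellin, at 0.09, Snora73b at 0.10 and the monoamine transporter Slc18a1 at 0.10 were closest to Nos2. These distances describe likeness over 6 arrays that differ mainly by group.

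**Figure D5:**
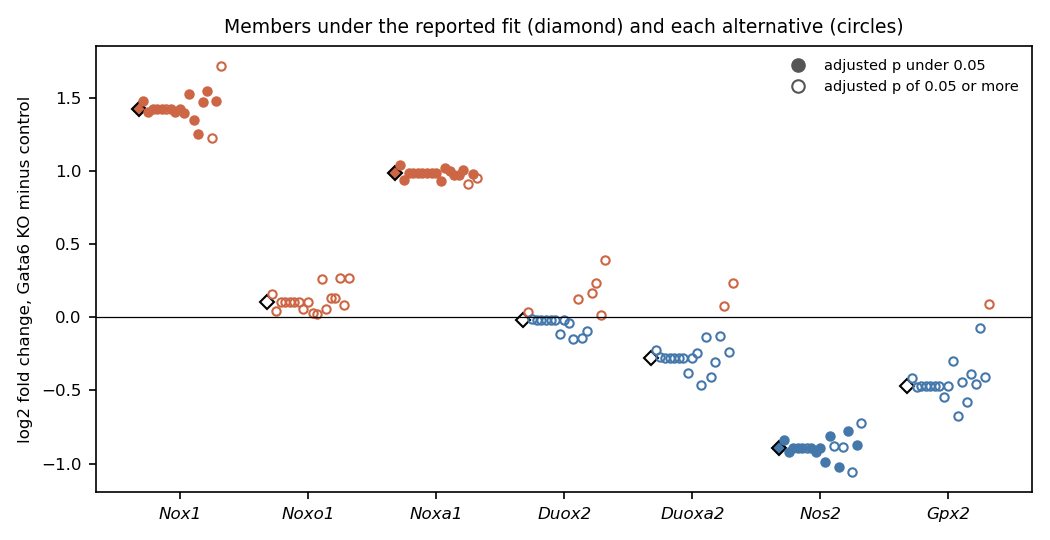
The log2 fold change of each of the 7 genes (vertical axis, Gata6 KO-labelled minus control) is plotted for the reported fit (diamond) and 18 alternatives (circles), filled where the adjusted p was under 0.05. Nox1 stays between 1.23 and 1.72, Noxa1 between 0.91 and 1.04 and Nos2 between -1.06 and -0.72. The sign turns in 6 of the 18 alternatives for Duox2, in 2 for Duoxa2 and in 1 for Gpx2.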

How the data were processed

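The values used are log2 signals as deposited, with a column for each of the 6 mice; the submitters' processing notes name Affymetrix Expression Console and no version. How background, scaling and probe summary were done, and on which build, no source used here states; that the base is 2 was read from the spread of the values. These values were not rescaled, and dim genes were kept. Of 35557 probe sets, 21789 have 1 gene symbol, 1621 several and 12147 none listed; only those with 1 symbol were used, and where a gene had several (999 genes) the brightest by mean was kept, which left 19938 genes. For 21698 probe sets the gene identifier was found in the RefSeq table of GRCm38.p6.

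Groups were compared with limma 3.58.1 in R 4.3.3 (lmFit, eBayes, two-sided, Benjamini-Hochberg over all genes, threshold 0.05). The series' design text says that individual mice were examined, and their number limits the precision. On simulated arrays of these 19938 genes, the fit recovered 50.1%, 97.9% and 99.8% of changes of 0.5, 1 and 2 on the log2 scale, with 4.75% false calls. Each of the 5 simulations changed 200 genes, against 1643 called in the data, and drew independent noise for each gene from the fitted variances. Differences of 1 array shared by many genes were not simulated, so these rates may not hold for the real arrays. The members and the gene lists were chosen with earlier results of these data known. Named were the members, all other oxidase subunits and glutathione peroxidases, up to 4 genes that passed per pathway list and 3 per marker list, the tissue markers and the 3 genes nearest in pattern; chromosomal neighbours were added outside this rule, and other exceptions are marked. Probe sets that could share signal between Duox1 and Duox2 were not checked. Alternatives covered scaling, a minimum mean of 4, probe sets, moderation, array weights, the replicate number, left-out arrays and covariates. Figures were drawn with matplotlib 3.10.9.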

Additional observations from a re-analysis of the deposited data

How the results depend on the processing

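Over 18 alternatives the direction of Nox1, Noxa1, Nos2 and Noxo1 did not turn, and Noxo1 never passed (0.03 to 0.27). Without moderation, Nox1 (1.43, limma adjusted p = 0.0692) and Nos2 (-0.89, 0.109) no longer passed, and 168 genes were higher and 106 lower, against 995 and 648. With the smooth muscle covariate Nox1 (1.72), Noxa1 (0.95) and Nos2 (-0.72) did not pass, and the counts were 46 and 51. Duox2 (0.39), Duoxa2 (0.23) and Gpx2 (0.092) turned sign there. Because that covariate did not overlap between the groups, its fit cannot well separate muscle content from the label. Without control arrays 1 and 3 together, with 1 control left that is assumed to vary like the others, Nox1 (1.23, adjusted p = 0.160), Noxa1 (0.91, 0.0812) and Nos2 (-1.06, 0.155) did not pass, the counts were 25 and 11, and Duox2 (0.24) and Duoxa2 (0.081) turned sign. Duox2 also turned sign with arrays centred on the median (0.036), which gave 1562 higher genes, with the epithelium covariate (0.013), and without control replicate 3 (0.13) or Gata6 KO replicate 3 (0.17). With every probe set tested on its own, 491 were higher and 406 lower.

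Leaving out 1 array gave 1.26 to 1.55 for Nox1, 0.93 to 1.02 for Noxa1, -1.02 to -0.78 for Nos2 and -0.15 to 0.17 for Duox2, with 320 to 806 genes higher and 277 to 597 lower. The replicate numbers are not stated to pair mice, so they were not taken as pairs. For replicates 1, 2 and 3 the deviations of same-numbered arrays correlated at 0.04, -0.04 and 0.15. The highest correlations with another number were 0.078, 0.055 and -0.041. With the replicate block 766 genes were higher and 475 lower. Nox1 (1.43, limma adjusted p = 0.00821), Noxa1 (0.99, 0.00611) and Nos2 (-0.89, 0.0355) passed there. Why calls and counts differed between these fits was not tested.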
